A study of Mus musculus with 8 samples.

Results

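The genes described here are the core autophagy genes of mouse spleen XCR1+ dendritic cells, the conventional dendritic cells that carry CD8α and cross-present antigen. They are the genes whose symbol is Atg followed by a number, 18 in all, together with 22 of 23 further genes named for the pathway, which gives 40 of the 19938 genes measured. Optn was not analysed here. Each gene was represented by the table row with the highest mean over the 8 arrays.

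Autophagy encloses cytoplasm in a double membrane, the autophagosome, and delivers it to the lysosome. The ULK kinase complex starts the process, class III phosphatidylinositol 3-kinase complexes mark the membrane with the lipid PI3P, and a conjugation system attaches proteins of the LC3 and GABARAP family to it. Cargo receptors tie ubiquitin-tagged material to these proteins. In dendritic cells the pathway is known for feeding cytosolic antigen into class II presentation.

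Cells came from the spleen of untreated mice that carry a yellow fluorescent reporter (EYFP) in Il12b, the gene of the interleukin 12 p40 subunit; all groups carry the reporter. All were sorted as lineage-negative, with low or no Bst2, high CD11c and CD8α. The immature group lacked CCR7 and reporter (n = 3), the CCR7+Il12b- group had CCR7 without reporter (n = 3), and the CCR7+Il12b+ group had both (n = 2). Maturing dendritic cells gain CCR7, a chemokine receptor, and the series title names homeostatic maturation as its subject. The sources used here do not give the mice's age or number, or whether mice were pooled. RNA input was 3 or 20 ng per sample, without a statement of which sample had which, so an effect of input cannot be told apart from group.

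The values are log2 expression values of 1 array per sample, normalized by the authors, and every change below is a difference of log2 group means with its standard error (SE) from limma. A gene is called when its p-value, adjusted over all 19938 genes, is under 0.05. A background mark of 4.98 was taken from olfactory and vomeronasal receptor genes, which these cells are not known to use. At least 1 group mean lay above the mark for 39 of the 40 members and for 12934 of all genes; Wipi1, with group means of 4.66, 4.80 and 4.92, was the exception. Nothing in the labels ties samples of a group to different mice, so the replicate spread behind each p-value could be technical only. In sorted bulk samples, fewer cells of a type and less RNA per cell cannot be told apart.

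Several facts of the samples bear on what follows. Ccr7, which the cells were sorted on, was at 8.50 to 8.86 in immature and at 12.20 to 12.77 in matured samples. Il12b RNA was at 6.88 to 7.11 in immature, 10.77 to 10.84 in CCR7+Il12b- and 12.22 to 12.35 in CCR7+Il12b+ samples, so the group without reporter signal had Il12b RNA above the immature level. All 12 markers listed for XCR1+ dendritic cells had means above the mark in every group, and 7 and 10 of them were lower in CCR7+Il12b- and CCR7+Il12b+ than in immature cells, Xcr1 itself falling from 10.90 to 9.54 and 7.88. The other 2 called markers rose in both, Batf3 by 0.54 and 0.89 and Ly75 by 2.13 and 2.64. CCR7+Il12b- replicate 3 lay at 30.1 on the first principal component, against 8.21 and 13.4 for its group and 52.2 and 53.6 for CCR7+Il12b+. CCR7+Il12b+ replicate 1 was higher than replicate 2 in 33 of 40 members (82.5%), against 52.2% of the genes above the mark.

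Markers of other cells also moved. The log2 of the summed level of 9 monocyte and macrophage markers was 11.74 to 11.80 in immature, 11.50 to 11.86 in CCR7+Il12b- and 11.33 to 11.52 in CCR7+Il12b+ samples. In the same order it was 8.47 to 8.77, 9.12 to 9.56 and 8.65 to 8.72 for 6 B cell markers, with Cd79a and Ebf1 below the mark in every group. It was 6.64 to 6.79, 7.18 to 7.23 and 7.15 to 7.22 for 4 erythroid markers, and 9.86 to 10.17, 9.28 to 9.47 and 9.24 in both samples for 5 plasmacytoid markers. Of these lists, 3, 3, 2 and 0 genes were called higher and 3, 1, 0 and 4 lower in CCR7+Il12b- cells, and 3, 1, 2 and 0 higher and 4, 2, 0 and 4 lower in CCR7+Il12b+ cells. The sums hide opposite moves. Of the monocyte and macrophage markers, Spic (3.148 and 3.065) and Vcam1 (2.57 and 3.17) rose steeply, while Lyz2 (-1.45 and -3.11) and Cd68 (-1.38 and -2.67) fell. Of the B cell markers, Ms4a1 rose (1.51 and 0.91) and Fcrla fell (-1.16 and -1.67). For 6 NK cell markers the sum was 8.64 to 8.82, 7.87 to 8.47 and 7.38 to 7.48, where Klrk1 fell (-0.97 and -2.55) and Ncr1 and Klrb1c were below the mark in every group. For 6 CD11b+ dendritic cell markers it was 8.50 to 9.12, 9.29 to 9.48 and 8.76 to 8.78, where Irf4 rose (1.02 and 0.88), Sirpa rose in CCR7+Il12b- cells (1.08) and Cd209a fell (-1.02 and -2.03). For 4 T cell markers it was 7.38 to 7.51, 7.25 to 7.56 and 6.92 to 7.16, with Cd3d and Cd3g below the mark in every group. For 6 neutrophil markers it was 7.16 to 7.58, 7.41 to 7.64 and 7.47 to 7.53, with changes between -0.24 and 0.34 that were not called. In CCR7+Il12b- cells 2, 2 and 1 of the NK, CD11b+ and T cell markers were called higher and 1, 1 and 0 lower, and in CCR7+Il12b+ cells 0, 1 and 0 higher and 1, 1 and 2 lower. Their part in the results below was not tested.

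In short, 27 of the 40 members were called in no comparison. The 32.5% called in at least 1 stand beside 34.8% of all genes and 50% of those above the mark. A few members moved clearly. The cargo receptor Sqstm1 rose most, 3.99-fold in CCR7+Il12b+ cells, Gabarapl1, Tbk1 and Uvrag rose there by 2.72-fold, 2.42-fold and 2.18-fold, and Atg3 fell in both matured groups. In CCR7+Il12b- against immature cells, 5 members were called higher and 2 lower. The call rule held for 23.6% of all genes tested in that comparison, 9.10% higher and 14.5% lower, and for 17.5% of the members. In CCR7+Il12b+ against immature cells, 8 members were called higher and 3 lower, or 27.5%, against 32.0% of all genes, 14.1% higher and 17.9% lower. Between the matured groups, 4 members were higher in CCR7+Il12b+ cells and 0 lower, or 10%, against 7.08% of all genes, 2.61% higher and 4.47% lower. By limma's unadjusted p under 0.05, 7 members were higher and 4 lower there, beside 1647 and 1992 of the 19938 genes. Over the 12934 genes above the mark, the shares called were 35.0%, 46.4% and 10.8% in the 3 comparisons.

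The median change of the members was -0.04 in CCR7+Il12b- and -0.01 in CCR7+Il12b+ against immature cells, beside medians of 0.06 and 0.09 over all genes. Their median size of change was 0.17 and 0.25, beside 0.18 and 0.25 over all genes and 0.27 and 0.39 for genes above the mark. Sample values of the compared groups were fully separated for 13 members in the first comparison, 8 higher and 5 lower (41.3% of all genes, 22.1% and 19.2%). They were for 24 members in the second, 14 higher and 10 lower (57.1%, 33.5% and 23.6%), and for 15 in the third, 11 higher and 4 lower (29.6%, 15.3% and 14.3%). The comparisons share samples, so their counts are not independent of each other.

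**Figure D1:**
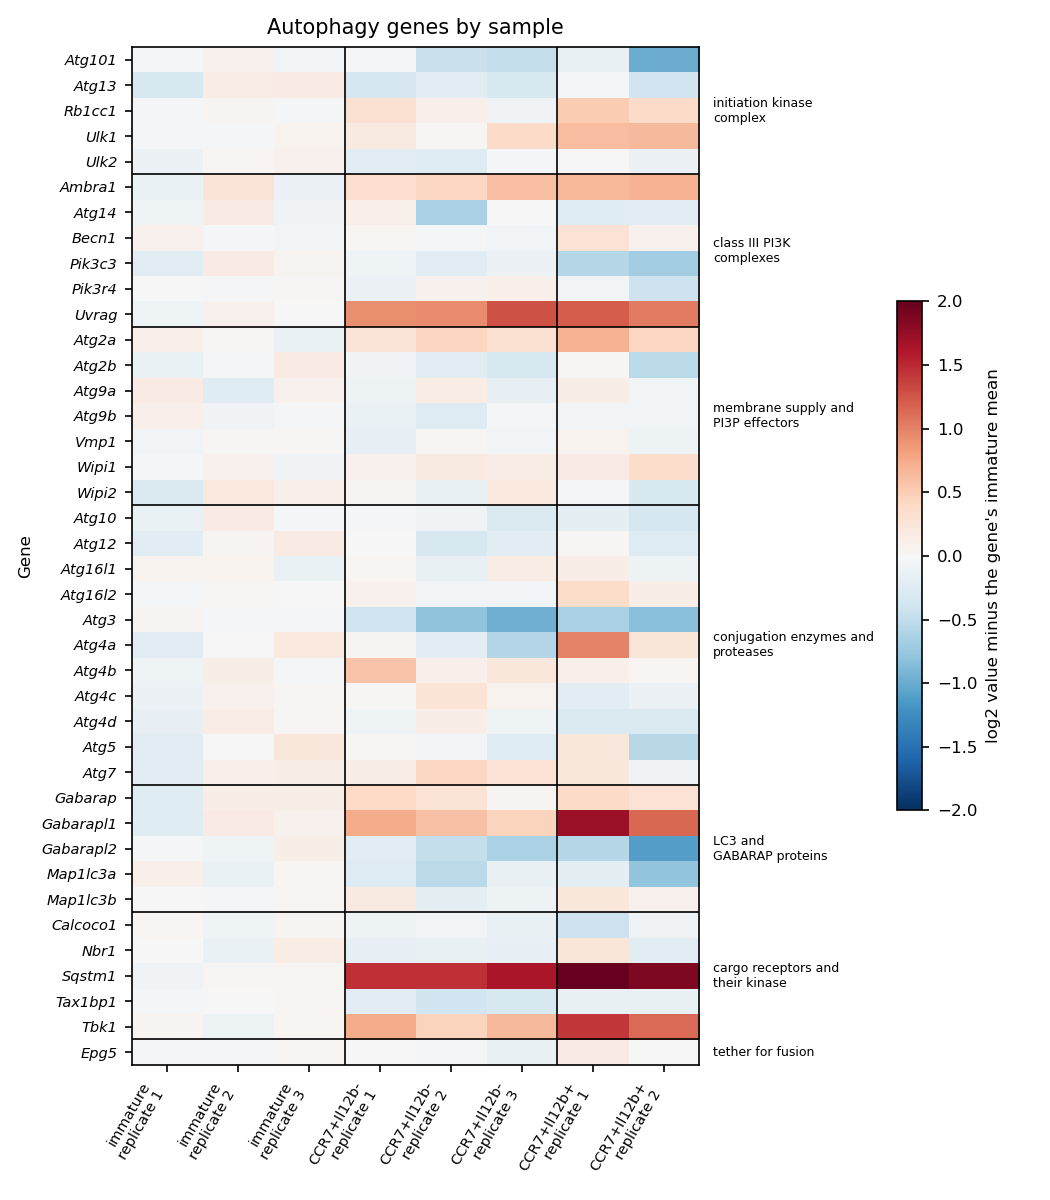
Log2 value of each of the 40 autophagy genes (rows, ordered by role) in each of the 8 samples (columns) minus the gene's immature mean, from blue (lower) to red (higher). Sqstm1, Tbk1, Gabarapl1 and Uvrag are red across the matured samples and Atg3 is blue, while most rows stay pale.

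Cargo receptors come first because they hold the largest change. Sqstm1 encodes p62, which binds ubiquitin and LC3 and is itself degraded by autophagy. It stood at 9.47, 9.57 and 9.59 (log2) in immature samples, at 11.00, 11.01 and 11.17 in CCR7+Il12b- samples and at 11.66 and 11.41 in CCR7+Il12b+ samples. The groups did not overlap, and each matured sample was higher than every immature one. The rise was 2.86-fold in CCR7+Il12b- cells (1.52 ± 0.11 SE, adjusted p = 3.90e-06) and 3.99-fold in CCR7+Il12b+ cells (2.00 ± 0.12, adjusted p = 5.37e-07). Between the matured groups it differed by 0.48 ± 0.12 (adjusted p = 0.0405). That last call was lost under 9 of 17 alternatives, with adjusted p up to 0.207, among them leaving out CCR7+Il12b- replicate 1 or 2, CCR7+Il12b+ replicate 1, or immature replicate 2 or 3.

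Tbk1, a kinase that phosphorylates cargo receptors and also acts in interferon signalling, rose with maturation. Its values were 8.46, 8.29 and 8.44 in immature, 9.14, 8.84 and 9.05 in CCR7+Il12b- and 9.82 and 9.53 in CCR7+Il12b+ samples. The groups were in this order without overlap. The changes against immature cells were 0.61 ± 0.12 (adjusted p = 0.00365) and 1.28 ± 0.14 (2.42-fold, adjusted p = 2.73e-05), and the matured groups differed by 0.66 ± 0.14 (adjusted p = 0.0140). The difference between the matured groups did not pass without CCR7+Il12b- replicate 2 (adjusted p = 0.0587) or without CCR7+Il12b+ replicate 1 (adjusted p = 0.111).

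The other 3 cargo receptors were not called higher. Tax1bp1, which recruits ubiquitin-tagged cargo and links to Tbk1 signalling, was at 9.66, 9.70 and 9.73 in immature, 9.49, 9.32 and 9.38 in CCR7+Il12b- and 9.55 and 9.54 in CCR7+Il12b+ samples. In CCR7+Il12b- cells this was a fall of -0.30 ± 0.10 (adjusted p = 0.0461). This call was lost under 7 of 17 alternatives (adjusted p from 0.0757 to 0.151), including leaving out each immature replicate and CCR7+Il12b- replicates 2 and 3. In CCR7+Il12b+ cells its change was -0.15 ± 0.11 (adjusted p = 0.319). Nbr1, a receptor related to p62, differed from immature cells by -0.16 ± 0.13 and 0.01 ± 0.15, and Calcoco1 by -0.11 ± 0.11 and -0.24 ± 0.13; neither was called.

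**Figure D2:**
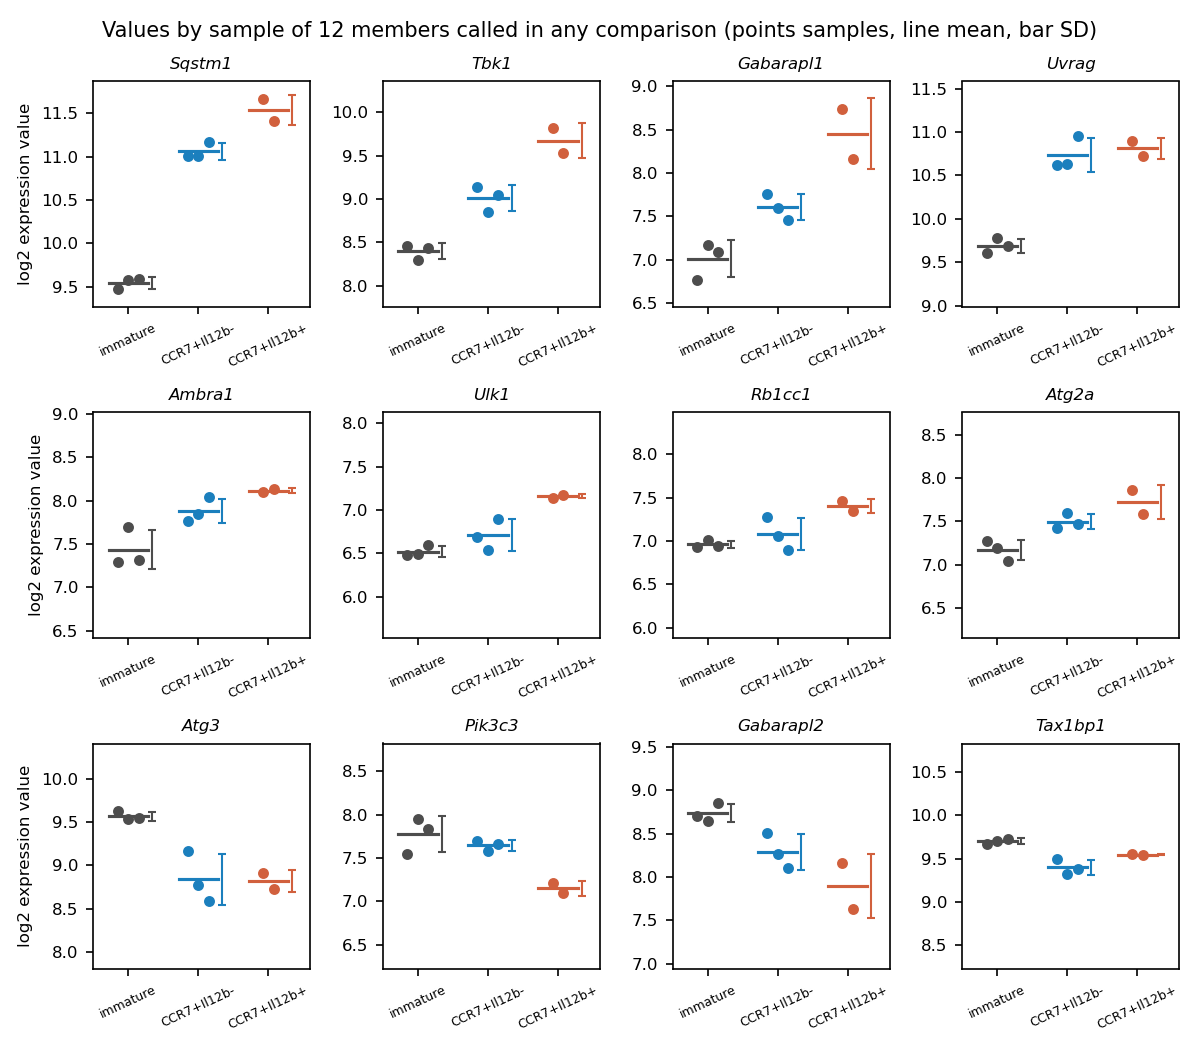
Log2 expression values by sample for 12 of the 13 members called in any comparison, with the group mean as a line and the SD as a bar; each panel spans the same range of log2 values. Sqstm1 rises from 9.54 to 11.06 and 11.54 in the group means, and Ulk1, Rb1cc1 and Pik3c3 separate mainly in the CCR7+Il12b+ samples.

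The LC3 and GABARAP proteins, which are attached to the growing membrane and bind the receptors, did not move as 1 family. Gabarapl1 was at 6.77, 7.17 and 7.09 in immature, 7.76, 7.60 and 7.46 in CCR7+Il12b- and 8.74 and 8.16 in CCR7+Il12b+ samples. The groups lay in that order without overlap, with the widest spread in CCR7+Il12b+ samples (SD 0.41). It rose by 0.60 ± 0.16 (adjusted p = 0.0221) in CCR7+Il12b- and by 1.44 ± 0.18 (2.72-fold, adjusted p = 0.000104) in CCR7+Il12b+ cells, and the matured groups differed by 0.85 ± 0.18 (adjusted p = 0.0190). The first of these calls was lost after median centring and in the fits lacking immature replicate 1 or either of CCR7+Il12b- replicates 1 and 2 (adjusted p from 0.0522 to 0.0778). The difference between the matured groups was lost without CCR7+Il12b- replicate 2, without CCR7+Il12b+ replicate 1 and with a replicate block (0.0543 to 0.152).

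Gabarapl2, by contrast, was lower in CCR7+Il12b+ cells. Its values were 8.70, 8.65 and 8.85 in immature, 8.51, 8.26 and 8.10 in CCR7+Il12b- and 8.16 and 7.63 in CCR7+Il12b+ samples. Both matured groups lay below the immature one without overlap, and they overlapped each other. The fall of -0.84 ± 0.17 in CCR7+Il12b+ cells was called (adjusted p = 0.00268), and the value of -0.45 ± 0.15 in CCR7+Il12b- cells was not (adjusted p = 0.0573), though 7 of 17 alternatives called it.

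The remaining 3 members of the family were not called in any comparison. Gabarap was at 10.98, 11.36 and 11.33 in immature, 11.62, 11.50 and 11.28 in CCR7+Il12b- and 11.61 and 11.52 in CCR7+Il12b+ samples, with 0.34 ± 0.15 (adjusted p = 0.112) for CCR7+Il12b+ against immature cells. Map1lc3a, the gene of LC3A, was at 7.03, 6.80 and 6.97, at 6.67, 6.40 and 6.78, and at 6.73 and 6.15 in the same order of groups, with -0.49 ± 0.18 (adjusted p = 0.0573). Map1lc3b encodes LC3B, the usual protein marker of autophagosomes. It was at 8.92, 8.87 and 8.96, at 9.10, 8.73 and 8.81, and at 9.13 and 9.0, with -0.04 ± 0.12 and 0.15 ± 0.13 against immature cells.

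Of the members, 4 had 2 rows each. For Map1lc3b, Gabarapl2 and Atg4a, the row with the higher mean had 10 of 10 neighbours, in the order of the row numbers, on another chromosome than the gene, while all 10 neighbours of the other row lay on the gene's own chromosome. The row used for these 3 genes may thus measure a near-identical copy, and their levels are uncertain. The second row of Gabarapl2 was at 5.98, 6.29 and 6.50 in immature, 5.98, 5.52 and 5.88 in CCR7+Il12b- and 5.72 and 5.64 in CCR7+Il12b+ samples. Its fall in CCR7+Il12b+ cells was -0.57 ± 0.18 (adjusted p = 0.0291 over 21789 rows), so both rows fell there. The second row of Map1lc3b gave -0.08 ± 0.12 and 0.03 ± 0.14 against immature cells. The rows of Atg2b, both beside genes of its own chromosome, gave -0.26 ± 0.17 and -0.05 ± 0.19 for CCR7+Il12b+ against immature cells, and neither was called.

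**Figure D3:**
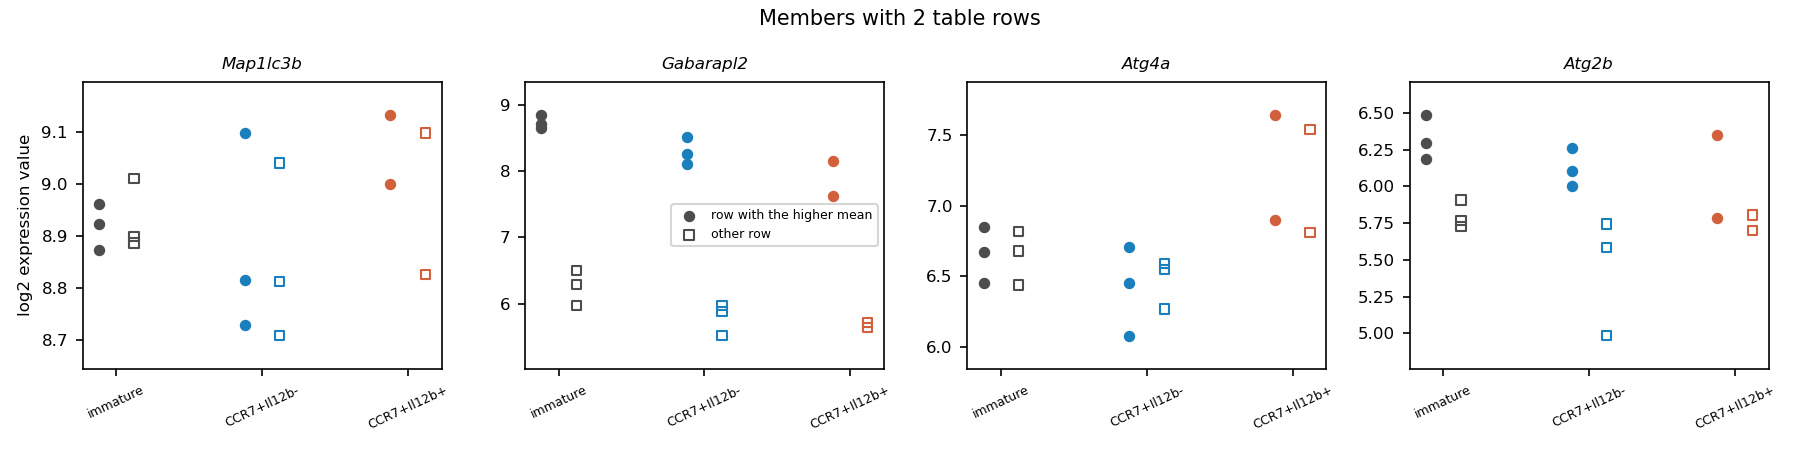
Log2 expression values of both table rows of the 4 members with 2 rows, by group; filled circles are the row with the higher mean and open squares the other row. For Gabarapl2 both rows go down from immature to CCR7+Il12b+ samples, by -0.84 and -0.57, and the panels have separate log2 axes.

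Conjugation enzymes and the proteases that prime and recycle LC3 had few called changes. Of 11 members, 0 were called higher and 1 lower in CCR7+Il12b- and in CCR7+Il12b+ against immature cells. Of all genes, 23.6% and 32.0% were called. By limma's unadjusted p under 0.05, 1 was higher in each comparison, and 1 and 2 were lower. By the same p, 2999 and 4153 of the 19938 genes were higher, and 3753 and 4089 were lower. Whether the 11 members differ from these shares was not tested. The member called lower was Atg3, the E2-like enzyme that passes LC3 to the lipid. It was at 9.62, 9.53 and 9.54 in immature, 9.16, 8.77 and 8.59 in CCR7+Il12b- and 8.91 and 8.73 in CCR7+Il12b+ samples. The immature samples were tight and lay above all matured ones, whose groups overlapped. The changes were -0.73 ± 0.14 (adjusted p = 0.00348) and -0.75 ± 0.16 (adjusted p = 0.00382), and no alternative ended either call. The matured groups differed by -0.02 ± 0.16.

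Promoter windows from RefSeq, 250 bases before to 50 after a start on GRCm38.p6, were found for 33 of the 40 members (39 windows). They were searched on both strands for the CLEAR element TCACGTGA, known from targets of the transcription factors TFEB and TFE3, its E-box core CACGTG and for the kB motif of NF-kB. CLEAR was in 1 of the 39 windows, that of Atg3, against 0.974% of all 32851 windows. The E-box core, which every CLEAR match contains, was in 5 of the 39 windows, against 7.15% of all windows. These 5 were the windows of Atg3, Atg5, Atg7, Atg14 and Tbk1, and Atg5, Atg7 and Atg14 were not called in any comparison. Whether the members differ from all windows in these motifs was not tested. This form of the kB motif was in 0 of the 39 windows and in 0.411% of all. At that share, 0 in 39 windows does not set the members apart. The windows of Atg3 (chr16:45158579-45158878, plus strand) and Tbk1 (chr10:121586745-121587044, minus strand) are shown because these 2 genes were called in opposite directions while both hold the E-box core, with matches in capitals. The CLEAR match of Atg3 begins at position -72 from the start, and its other E-box at -94; that of Tbk1 begins at base 6 after the start. A match of letters is a description of the window and not evidence of binding.
Atg3: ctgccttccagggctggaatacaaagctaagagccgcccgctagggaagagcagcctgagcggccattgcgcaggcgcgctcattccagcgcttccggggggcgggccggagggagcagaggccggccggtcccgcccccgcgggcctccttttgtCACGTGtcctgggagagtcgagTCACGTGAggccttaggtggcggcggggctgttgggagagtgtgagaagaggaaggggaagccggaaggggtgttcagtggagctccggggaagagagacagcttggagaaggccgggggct
Tbk1: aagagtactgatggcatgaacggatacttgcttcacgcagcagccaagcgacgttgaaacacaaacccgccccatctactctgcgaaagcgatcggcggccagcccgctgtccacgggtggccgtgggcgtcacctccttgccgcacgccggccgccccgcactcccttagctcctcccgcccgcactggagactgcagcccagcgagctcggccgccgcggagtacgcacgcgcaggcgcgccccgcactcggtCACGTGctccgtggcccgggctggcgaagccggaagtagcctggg

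Atg4a, a protease that trims GABARAP proteins, was the only conjugation gene called between the matured groups. It was at 6.45, 6.67 and 6.85 in immature, 6.71, 6.45 and 6.08 in CCR7+Il12b- and 7.64 and 6.90 in CCR7+Il12b+ samples. The difference of 0.86 ± 0.23 between the matured groups (adjusted p = 0.0498) was lost under 12 of 17 alternatives (adjusted p from 0.0528 to 0.311), including leaving out each immature replicate, CCR7+Il12b- replicates 2 and 3 and CCR7+Il12b+ replicate 1. With the row beside its own chromosome's genes, it was 0.71 ± 0.21 (adjusted p = 0.0744 over all rows).

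The other 9 conjugation genes were not called in any comparison. Atg5, Atg12 and Atg16l1, which form the complex that places LC3 on the membrane, differed from immature cells by -0.10, -0.18 and 0.01 in CCR7+Il12b- and by -0.16, -0.12 and 0.01 in CCR7+Il12b+ cells. Atg7, the E1-like enzyme, differed by 0.28 ± 0.13 and 0.08 ± 0.15, and Atg10, the E2-like enzyme for Atg12, by -0.13 ± 0.12 and -0.26 ± 0.13. Atg16l2 differed by -0.01 ± 0.11 and 0.25 ± 0.12. Among the further proteases, Atg4b was at 0.30 ± 0.13 and 0.07 ± 0.15, Atg4c at 0.12 ± 0.11 and -0.17 ± 0.12, and Atg4d at -0.01 ± 0.12 and -0.29 ± 0.13. The means of Atg4c lay below the background mark in immature (4.975) and CCR7+Il12b+ samples (4.806) and near it in CCR7+Il12b- samples (5.097).

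The kinase complex that starts autophagy differed by member in CCR7+Il12b+ cells. Ulk1, its catalytic subunit, was at 6.48, 6.49 and 6.59 in immature, 6.69, 6.54 and 6.90 in CCR7+Il12b- and 7.14 and 7.17 in CCR7+Il12b+ samples. Only the CCR7+Il12b+ samples lay clear of the immature ones, and the rise there was 0.64 ± 0.13 (adjusted p = 0.00251), a call that every alternative kept. Rb1cc1, the scaffold FIP200, rose by 0.44 ± 0.13 (adjusted p = 0.0225). That call was lost without immature replicate 1 or 3, without CCR7+Il12b+ replicate 1 and with a replicate block (adjusted p from 0.0529 to 0.0995). Neither gene was called in CCR7+Il12b- cells (0.19 ± 0.11 and 0.11 ± 0.12), nor were they called between the matured groups (0.45 ± 0.13, adjusted p = 0.0639, and 0.33 ± 0.13, adjusted p = 0.196).

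The other 3 members of the complex were not called. The related kinase Ulk2 differed from immature cells by -0.17 ± 0.11 and -0.05 ± 0.12, and the adaptor Atg13 by -0.28 ± 0.15 and -0.21 ± 0.17. Atg101, which stabilises Atg13, differed by -0.57 ± 0.22 in CCR7+Il12b+ cells (adjusted p = 0.0709), where its samples stood at 7.01 and 6.17. Without replicate 1 that difference was -0.99 and was called (adjusted p = 0.00366), and without replicate 2 it was -0.15 (adjusted p = 0.675).

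Of the class III phosphatidylinositol 3-kinase genes, Uvrag moved most. Its product is the subunit that marks the complex working at endosomes and late steps. Uvrag was at 9.61, 9.77 and 9.68 in immature, 10.62, 10.64 and 10.96 in CCR7+Il12b- and 10.90 and 10.73 in CCR7+Il12b+ samples. All matured samples lay above the immature ones, and the matured groups overlapped. It rose by 1.05 ± 0.12 (2.07-fold, adjusted p = 0.000121) and by 1.13 ± 0.14 (2.18-fold, adjusted p = 6.92e-05), and the matured groups differed by 0.08 ± 0.14 (adjusted p = 0.862).

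Atg14, the subunit of the complex that works at autophagosome formation, differed by -0.19 ± 0.18 and -0.22 ± 0.20 and was not called. Pik3c3, the catalytic subunit VPS34, fell in CCR7+Il12b+ cells by -0.63 ± 0.14 (adjusted p = 0.00397), with 7.55, 7.95 and 7.84 in immature, 7.69, 7.58 and 7.67 in CCR7+Il12b- and 7.21 and 7.09 in CCR7+Il12b+ samples. Its value in CCR7+Il12b- cells was -0.14 ± 0.12. The matured groups of Pik3c3 differed by -0.49 ± 0.14 without overlap, which was not called (adjusted p = 0.0544), though 3 of 17 alternatives called it. Ambra1, a partner of Becn1 and ULK1, rose by 0.45 ± 0.13 (adjusted p = 0.0296) and 0.68 ± 0.15 (adjusted p = 0.00390). The first of these was lost without immature replicate 1 or 3, without CCR7+Il12b- replicate 2 or 3, after median centring and with array weights (adjusted p from 0.0528 to 0.123). The core subunits Becn1 (-0.01 ± 0.10 and 0.19 ± 0.12) and Pik3r4 (0.02 ± 0.12 and -0.24 ± 0.13) were not called.

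Genes for membrane supply and for reading PI3P also had few called changes. Of 7 members, 0 were called in CCR7+Il12b- cells, where 23.6% of all genes were called. By limma's unadjusted p under 0.05, 1 and 2 were higher in CCR7+Il12b- and CCR7+Il12b+ cells, beside 2999 and 4153 of the 19938 genes. By that p, 0 were lower in either group, beside 3753 and 4089 genes. Whether so few members differ from these shares was not tested. In CCR7+Il12b+ cells, where 32.0% of all genes were called, 1 member was called higher. This was Atg2a, a lipid transfer protein, at 7.27, 7.20 and 7.05 in immature, 7.43, 7.60 and 7.47 in CCR7+Il12b- and 7.87 and 7.59 in CCR7+Il12b+ samples. Both matured groups lay above the immature one, with 0.33 ± 0.12 (adjusted p = 0.0648) and 0.56 ± 0.13 (adjusted p = 0.00619). Without CCR7+Il12b+ replicate 1 the latter was 0.42 (adjusted p = 0.0540). Its paralogue Atg2b differed by -0.20 ± 0.15 and -0.26 ± 0.17. The scramblase genes Atg9a (-0.04 and 0.03) and Vmp1 (-0.06 and -0.02) and the PI3P-binding Wipi2 (0.04 and -0.17) were not called. Atg9b (-0.14 and -0.05) and Wipi1 (0.14 and 0.25) were not called either, and Epg5, a tether for fusion with the lysosome, differed by -0.06 ± 0.10 and 0.08 ± 0.11.

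**Figure D4:**
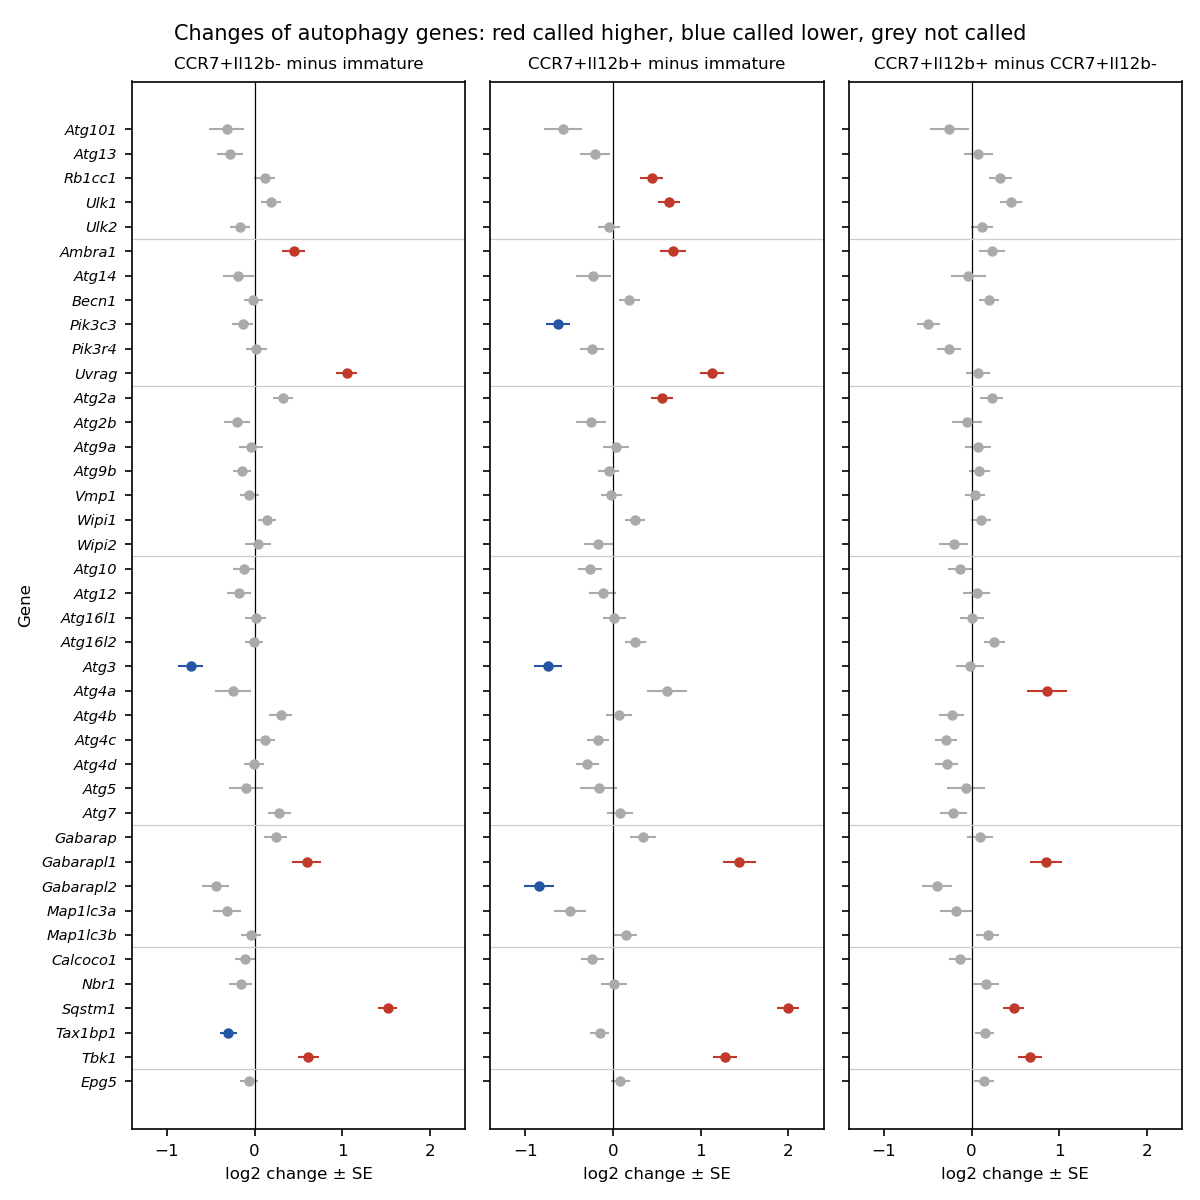
Log2 change ± SE of each of the 40 members in the 3 comparisons, ordered by role; red is called higher, blue called lower and grey not called. The red points number 5, 8 and 4 and the blue points 2, 3 and 0 from left to right.

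Samples that stand apart touched some of these counts. Without CCR7+Il12b- replicate 3, Sqstm1 (1.46), Tbk1 (0.59), Gabarapl1 (0.67) and Uvrag (0.94) were still called higher in CCR7+Il12b- cells, and 4 members were higher and 1 lower. Higher calls in that comparison fell to 3 when immature replicate 1 or CCR7+Il12b- replicate 2 was left out. Lower calls fell to 1 in each of 4 fits, those lacking replicate 2 or 3 of the immature or of the CCR7+Il12b- group. Without CCR7+Il12b+ replicate 1, 6 members were higher and 8 lower in CCR7+Il12b+ than in immature cells, the added falls being those of Atg101, Atg2b, Atg5, Map1lc3a and Pik3r4. Between the matured groups all 4 calls were lost when CCR7+Il12b- replicate 2 or CCR7+Il12b+ replicate 1 was left out, and 2 members were called when immature replicate 2 or 3 was.

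Genes around the core, in 5 lists of 104 measured genes, gave 18 higher and 22 lower in CCR7+Il12b- and 26 higher and 25 lower in CCR7+Il12b+ against immature cells, which is 38.5% and 49.0% of them. These shares stand beside 35.0% and 46.4% of the genes above the mark, and 23.6% and 32.0% of all genes. Of the genes above the mark, 13.0% were higher and 22.1% lower in CCR7+Il12b- cells, and 19.3% and 27.1% in CCR7+Il12b+ cells. The counts of single lists below stand beside these shares, and their differences from them were not tested. Between the matured groups 8 were higher and 6 lower, or 13.5%, beside 7.08% of all genes and 10.8% of those above the mark. The lists were chosen with earlier results of these data known.

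Of 12 transcription factor genes of the pathway, 2 were higher and 2 lower in CCR7+Il12b- and 3 higher and 2 lower in CCR7+Il12b+ cells. Tfeb, a master regulator of lysosome and autophagy genes, was higher in CCR7+Il12b- cells (0.45 ± 0.11, adjusted p = 0.0100, or 0.0595 without immature replicate 2) and was at 0.19 ± 0.12 in CCR7+Il12b+ cells. Its relative Tfe3 was at 0.36 ± 0.12 (adjusted p = 0.0563) and rose by 0.67 ± 0.14 in CCR7+Il12b+ cells (adjusted p = 0.00291), and Mitf was not called (0.13 ± 0.12 and 0.36 ± 0.14). Nfe2l2, the gene of NRF2, which controls antioxidant genes and Sqstm1, rose by 0.70 ± 0.14 and 0.60 ± 0.15, the latter lost without CCR7+Il12b+ replicate 1 (adjusted p = 0.0932). Ddit3, the gene of the stress factor CHOP, rose in CCR7+Il12b+ cells (0.79 ± 0.13). Foxo3, a forkhead factor that drives autophagy genes in muscle, fell in CCR7+Il12b- cells (-0.45 ± 0.13) and in CCR7+Il12b+ cells (-0.90 ± 0.15). The first of these Foxo3 calls was lost under 7 of 17 alternatives.

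Of 33 genes for nutrient control by mTORC1 and AMPK, 6 were higher and 7 lower in CCR7+Il12b- and 8 higher and 7 lower in CCR7+Il12b+ cells. Rragd, a GTPase that recruits mTORC1 to the lysosome, was at 4.89, 4.87 and 4.52 in immature, 5.89, 6.11 and 6.54 in CCR7+Il12b- and 7.79 and 7.57 in CCR7+Il12b+ samples. The immature mean lay below the mark, so the rises were at least 2.30-fold and at least 6.51-fold. Rptor, the mTORC1 subunit raptor, rose by 0.99 in CCR7+Il12b- and by 1.72 ± 0.19 in CCR7+Il12b+ cells. In the same order, Lamtor2, part of the lysosomal anchor of the same GTPases, fell by -1.47 and -2.53 ± 0.19. Rraga, a partner of Rragd, fell by -0.97 and -1.92 ± 0.20. Each of these genes was called in both matured groups.

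Of 21 genes for fusion with the lysosome, 3 were higher and 5 lower in CCR7+Il12b- and 5 higher and 4 lower in CCR7+Il12b+ cells. Rubcn, the gene of Rubicon, which binds the Uvrag complex and holds it back, rose by 1.29 ± 0.15 and 1.81 ± 0.17. Rubcnl, whose product acts with Uvrag in the opposite sense, fell by -0.73 ± 0.13 and -1.77 ± 0.15. Lamp1, a lysosomal membrane protein, rose by 1.62 ± 0.10 and 2.15 ± 0.11, and Vps39, a subunit of the HOPS tether, by 1.36 ± 0.12 and 2.00 ± 0.13. Lamp1 values were 8.96, 9.16 and 9.12 in immature, 10.78, 10.62 and 10.70 in CCR7+Il12b- and 11.22 and 11.23 in CCR7+Il12b+ samples, in this order without overlap.

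Of 20 other formation factors, 6 were higher and 3 lower in CCR7+Il12b- and 6 higher and 5 lower in CCR7+Il12b+ cells. C9orf72, whose complex acts on Rab proteins and ULK1, rose by 1.27 ± 0.13 and 1.93 ± 0.14. Zfyve1, the gene of DFCP1, a marker of the site where autophagosomes form, rose by 0.76 ± 0.12 and 1.54 ± 0.13, and Trp53inp1, which binds LC3, by 0.50 ± 0.11 and 1.40 ± 0.13. Bcl2, which binds Becn1, fell by -0.94 ± 0.11 and -1.25 ± 0.12.

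Of 18 measured genes for other selective receptors and ubiquitin kinases, 1 was higher and 5 lower in CCR7+Il12b- and 4 higher and 7 lower in CCR7+Il12b+ cells. Ncoa4, the receptor for ferritin, rose by 0.98 ± 0.13 and 1.37 ± 0.14. Ccpg1, a receptor for endoplasmic reticulum, fell by -1.13 ± 0.12 and -1.62 ± 0.14, and Fundc1, a receptor on mitochondria, by -0.98 ± 0.22 and -1.47 ± 0.24. Irgm1, an interferon-inducible GTPase, was at 0.04 ± 0.16 in CCR7+Il12b- cells and fell by -1.18 ± 0.18 in CCR7+Il12b+ cells, and the matured groups differed by -1.22 ± 0.18 (adjusted p = 0.00194).

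**Figure D5:**
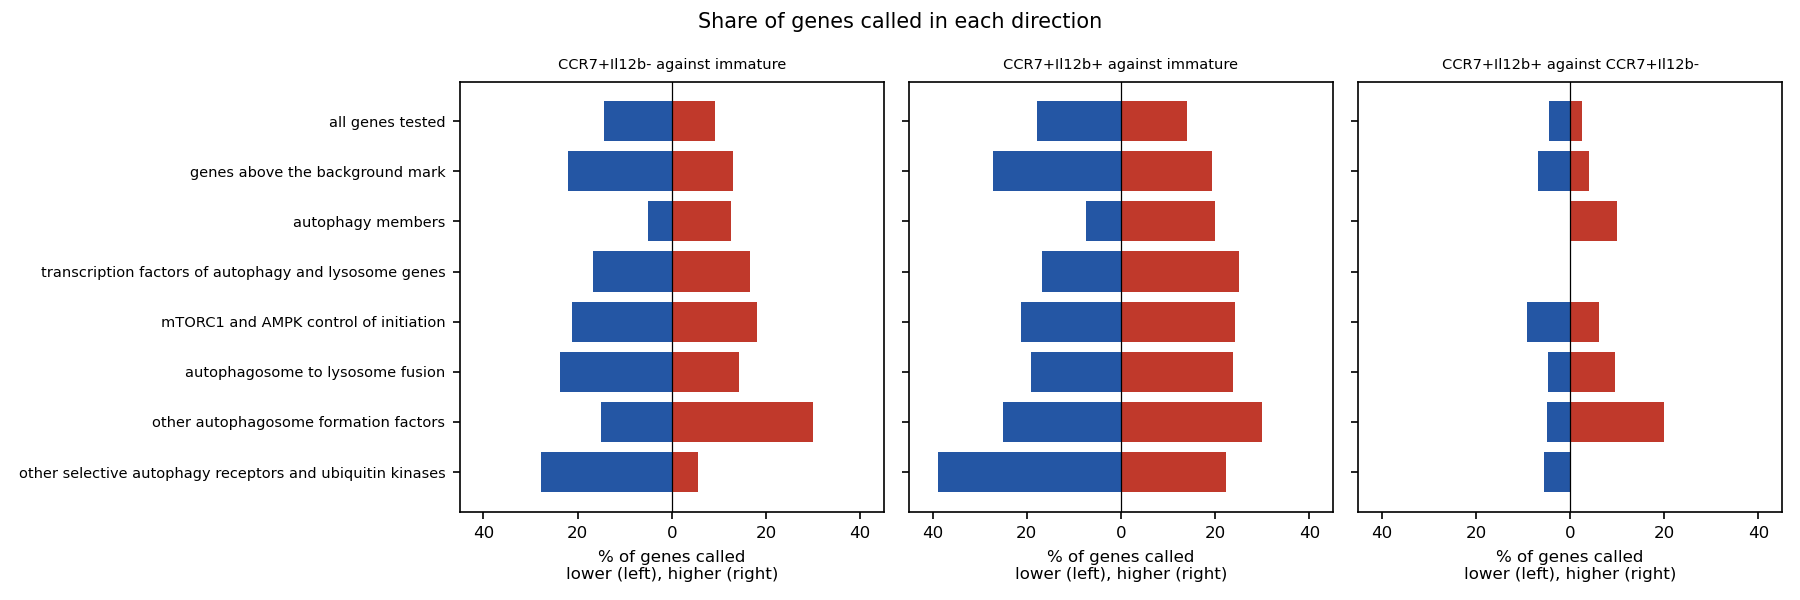
Share of genes called higher (right, red) and lower (left, blue) in each comparison, in percent, for all genes tested, genes above the background mark, the 40 autophagy members and the 5 lists around them. In CCR7+Il12b+ against immature cells the members' blue bar (7.50%) is shorter than that of all genes (17.9%), with no test of that difference. CCR7+Il12b+ replicate 1 was higher than replicate 2 in 82.5% of the members, against 52.2% of the genes above the mark. The number of members called lower depended on that replicate.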

How the data were processed

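The authors deposited log2 expression values per array probe set, for which the submitters' processing notes name RMA and oligo, a Bioconductor package. The sources used here give no versions, options or genome build. Per the labels' protocols, 3 or 20 ng of RNA was amplified in 2 rounds. RMA evens out the arrays, which hides any shift common to most genes; medians over all rows still lay between 5.25 and 5.46.

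Of 35556 rows, 21789 had exactly 1 symbol in the platform annotation, and the row with the highest mean stood for each of 19938 genes. All 8 samples entered 1 limma 3.58.1 model (R 4.3.3; lmFit, eBayes) with 3 group means. Tests were two-sided, with Benjamini-Hochberg adjustment over all genes and calls at an adjusted p under 0.05. The background mark was percentile 95 of the mean values of 1194 receptor genes of smell and pheromones. A called change with a group mean below it is given as a bound, each value under the mark being set to the mark. The fit was tested on simulated data with known changes. The number of arrays limits the precision.

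Values in every sample are given for members called with a log2 change of 1 or more in size and for the LC3 and GABARAP family; those of Tax1bp1, Atg3, Atg4a, Ulk1, Pik3c3, Atg2a, Rragd and Lamp1, and Atg101 in CCR7+Il12b+ cells, were added after their values were seen. From each further list the 4 largest called changes in CCR7+Il12b+ cells were named, with Tfeb, Tfe3 and Mitf. The members, lists and tests were chosen with earlier results of these data known. A comparison of protein sequences was not made. Alternatives were other normalizations, a filter on dim genes, other rows, array weights, a replicate block, the compared groups alone and each sample left out.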

Additional observations from a re-analysis of the deposited data

How the results depend on the processing

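Of the member calls, 4 of 7, 9 of 11 and 0 of 4 in the 3 comparisons (in the order of the report) were kept under all 17 alternatives, and no called member changed sign. Of the members not called, 4, 12 and 2 passed under at least 1 alternative, and 14, 13 and 15 changed sign under at least 1 without a call. In CCR7+Il12b- against immature cells, 5 members higher became 3 after median centring and 3 to 6 with 1 sample left out; 2 lower became 1 after cyclic loess, 4 with array weights, 1 with a replicate block and 1 to 3 with 1 sample left out. The split was 7 higher and 2 lower after quantile normalization and 7 and 1 after cyclic loess. In CCR7+Il12b+ against immature cells, 3 lower became 5 with a replicate block and 3 to 8 with 1 sample left out; higher calls numbered 12 after quantile normalization or cyclic loess. Between the matured groups, 4 higher became 2 after median centring, 1 with a replicate block, 2 with the compared groups alone and 0 to 4 with 1 sample left out, and 0 lower became 1 after cyclic loess or the filter on dim genes and 0 to 1 with 1 sample left out. Of all genes, 1412 called there became 712 to 1771 with 1 sample left out. Of the other pathway genes, 8 higher there became 13 after quantile normalization, 5 with a replicate block, 5 with the compared groups alone and 2 to 9 with 1 sample left out, and 6 lower became 2 to 10. The cause was not tested. The row beside the gene's own chromosome neighbours was chosen as an alternative after seeing the data and ended 1 call, that of Atg4a.

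The titles number the samples without saying that the numbers pair them, so the replicate block is an alternative alone. Deviations of same-numbered samples from their group means correlated between -0.17 and 0.22 across genes, and those of other samples between -0.22 and 0.19. With 2 or 3 samples per group the deviations are tied to each other, so these correlations cannot decide whether samples were paired. With the higher background percentile, 99 in place of 95, the mark was 5.92 and 36 members lay above it.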
